A study of Homo sapiens with 14 samples.

Results

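Transcript levels after 1 h of epidermal growth factor (EGF) were set against those after 1 h of angiogenin (ANG) in Panc-1, an established human pancreatic cancer cell line. The genes compared were those with a span, from the listed start to the listed end, of at least 400 bp and with at least 1 RPKM (reads per kilobase of transcript per M mapped reads) in either library. Of the 23040 genes in the files, 21480 had such a span and 11618 met both conditions. This set was not chosen by the difference between the ligands. Many of the genes named below were picked from it by that difference or after their values were seen.

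The series, RNA sequencing of total RNA, holds 14 libraries, 7 from Panc-1 and 7 from AsPC-1, a second pancreatic cancer line. The EGF cells received 50 ng/ml EGF for 1 h without serum, the ANG cells 1 µg/ml ANG (also called ribonuclease 5) for 1 h without serum, and the mock cells no ligand. The labels do not give the time or the serum state of the mock cells. The doses were not matched. Each condition is 1 library, so the 2 Panc-1 libraries at 1 h cannot be tested against each other and their differences are given as values. The p-values given at the end take their spread from other pairs of EGF and ANG libraries and measure only that spread, which may be technical.

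EGF binds the receptor tyrosine kinase EGFR, which passes the signal through RAS, RAF and MEK to the kinase ERK. ERK activates transcription factors of the ternary complex family that sit beside serum response factor (SRF) at DNA motifs called CArG boxes, and so switches on the immediate-early genes, whose transcription needs no new protein. ANG is a small secreted ribonuclease known for supporting blood vessel growth and for entering cells, and the series title names it as a ligand of EGFR.

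The 3 Panc-1 libraries held an estimated 15.02 M reads with EGF, 16.7 M with ANG and 15.5 M for mock. At these depths 1 read in 2 kb of transcript is worth 0.0333, 0.0299 and 0.0323 RPKM in the same order, and a level of 1 RPKM in 2 kb carries an exact 95% Poisson interval, which covers counting error only, of 0.675 to 1.43 RPKM with EGF and 0.690 to 1.40 RPKM with ANG. Line markers were looked at in these libraries, with no AsPC-1 levels beside them. VIM, the mesenchymal intermediate filament, stood at 2206 RPKM with EGF, 2189 with ANG and 2169 in mock, and N-cadherin CDH2 at 23.4, 22.6 and 21.2. All 3 Panc-1 line markers, ZEB1 among them, met the conditions. So did all 6 AsPC-1 line markers (CDH1, ELF3, CEACAM6, CEACAM5, MUC1 and TSPAN8), at up to 26.2 RPKM, so presence alone does not tell the lines apart. Of the 7 fibroblast, 4 endothelial and 5 leukocyte markers, only LYZ reached 1 RPKM, and DCN, PDGFRA, PECAM1 and CD3E were listed at 0 in all 3 libraries.

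Most genes had close levels with both ligands. On the log2(RPKM + 1) scale, where the pseudocount of 1 RPKM makes differences of low genes look smaller, EGF minus ANG had a median of 0.03 and its central 95% lay between -0.32 and 0.45. At least 2-fold apart on this scale were 58 genes (0.499% of those compared), 50 of them higher with EGF (0.43%) and 8 higher with ANG (0.0689%). With a threshold of 1.5-fold, 172 were higher with EGF (1.48%) and 50 higher with ANG (0.43%). This count varied widely between pairs of libraries. Of the same genes, 2 (0.0172%) lay 2-fold apart between the Panc-1 libraries taken 5 h and 1 h after ANG, the fewest. Between those taken 5 h and 1 h after EGF it was 38 (0.327%). In the other pairs of EGF and ANG libraries it ran from 24 (0.207%, Panc-1 at 5 h) to 241 (2.07%, AsPC-1 at 24 h). The genes just inside 2-fold were RRP12 (1.03), ATP6AP1L (1.02) and SPATA2L (1.01) on the EGF side, and just outside it LIF (1.00), ATF3 (1.00) and DUSP1 (1.00), whose unrounded values lie below 1. On the ANG side CARD17 (-1.01) lay just inside, and SCARNA2 (-0.99) just outside.

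**Figure D1:**
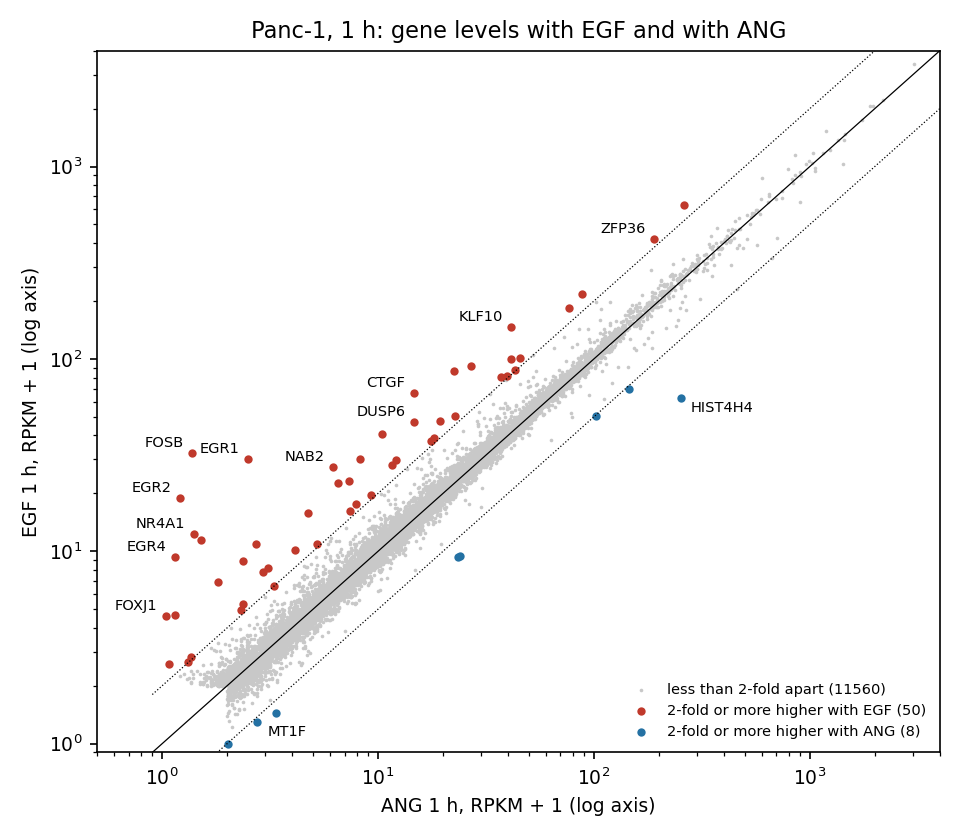
Level of each of the 11618 genes with ANG (x axis) and with EGF (y axis), both as RPKM + 1 on log axes, in Panc-1 at 1 h. Red points are the 50 genes at least 2-fold higher with EGF, blue points the 8 at least 2-fold higher with ANG, and dotted lines mark 2-fold; most red points lie above genes that are near 0 or low with ANG.

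The 50 genes higher with EGF had a median level of 24.3 RPKM with EGF, 6.36 with ANG and 7.91 in mock. The mock library is shared by both comparisons with it. Against it, 613 of all genes compared were at least 2-fold apart with EGF (5.28%), 401 higher (3.45%) and 212 lower (1.82%), and 554 with ANG (4.77%), 344 higher (2.96%) and 210 lower (1.81%). The 50 were picked by EGF against ANG in these same libraries, which partly sets where they lie against mock. Of the 50, 36 were at least 2-fold above mock with EGF and 0 below, while with ANG 0 were above and 3 below. Those 3 were BCYRN1, RPS28 and ZNF487P, named here after their values were seen. The genes were short, with a median span of 7.08 kb against 26.8 kb for all those compared.

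The EGR family of zinc-finger transcription factors, the best known immediate-early genes beside FOS, held several of the widest gaps. EGR1 (hg19 chr5:137801181-137805004, plus strand) stood at 29.1 RPKM with EGF, 1.49 with ANG and 1.32 in mock, a difference between the ligands of 3.59 on the log2 scale. Its level with ANG was thus close to mock, and only the EGF library was high. EGR2 (hg19 chr10:64571756-64578927, minus strand) stood at 17.9 RPKM with EGF, 0.21 with ANG and 0.06 in mock. EGR4 stood at 8.30, 0.15 and 0.13 RPKM, and EGR3 at 3.64, 0.15 and 0.18 RPKM, in the order EGF, ANG, mock. All 4 EGR genes were under 2 RPKM without EGF. NAB2, a corepressor that binds EGR proteins, was already present, at 5.16 RPKM with ANG and 8.35 in mock, and reached 26.4 RPKM with EGF, 5.12 times its ANG level.

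The promoters of EGR1 and SRF, both among the 50, are shown because, of the promoters found for the 50, only these held more than 1 CArG box. SRF was added after its values were seen. Each line gives the 250 bases before the transcription start in RefSeq's GRCh38.p14 annotation, 5′ to 3′, with the CArG boxes in capitals. EGR1 is chr5:138465229-138465478 and SRF chr6:43171019-43171268, both on the plus strand.
EGR1: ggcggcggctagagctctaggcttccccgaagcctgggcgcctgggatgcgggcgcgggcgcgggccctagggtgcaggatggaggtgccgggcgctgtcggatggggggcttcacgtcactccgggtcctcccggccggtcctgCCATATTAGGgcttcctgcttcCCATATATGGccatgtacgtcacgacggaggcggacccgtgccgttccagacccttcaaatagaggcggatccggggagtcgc
SRF: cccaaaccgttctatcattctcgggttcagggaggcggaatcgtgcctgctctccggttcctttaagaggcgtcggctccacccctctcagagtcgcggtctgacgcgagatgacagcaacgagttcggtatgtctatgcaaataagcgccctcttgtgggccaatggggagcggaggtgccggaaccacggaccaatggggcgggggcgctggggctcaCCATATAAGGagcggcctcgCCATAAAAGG

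The EGR1 boxes begin 105 and 83 bases before the start, and the SRF boxes 30 and 10 bases before it. SRF, the factor that binds these boxes, stood at 37.7 RPKM with EGF, 17.1 with ANG and 25.6 in mock. Windows from 250 bases before to 50 bases after the start were found for 33 of the 50 genes, and 3 of these (9.09%) held a CArG box on either strand, in EGR1, SRF and RPS28. The box was in 454 of all 35116 RefSeq windows (1.29%) and in 96 of the 9326 windows found for the genes compared (1.03%). More than 1 box was in 2 of the 33 windows and in 11 of all windows. TATAAA, on either strand, was in 7 of the 33 (21.2%), in 5.4% of the windows found for the genes compared and in 11.5% of all windows. The EGR-type GCGNGGGCG was in 6 of the 33 (18.2%), close to the 15.9% of the genes compared, and in 9.43% of all windows. TGACGTCA was in 1 and TGANTCA in 2 of the 33, against 3.36% and 4.32% of the genes compared and 1.85% and 7.71% of all windows. A match is a string of letters, not a measured binding site.

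FOS and JUN proteins pair to form the transcription factor AP-1. FOSB (hg19 chr19:45971253-45978437, plus strand) had the largest difference of all genes compared, 4.55 on the log2 scale, at 31.3 RPKM with EGF, 0.38 with ANG and 0.10 in mock. FOS stood at 5.95 RPKM with EGF, 0.82 with ANG and 0.59 in mock, and FOSL1 at 99.5, 40.1 and 24.8 RPKM. FOS and FOSB were thus near the bottom of the range with ANG, while FOSL1 was well expressed in every library. JUN stood at 100.4 RPKM with EGF, 44.5 with ANG and 27.1 in mock. JUNB, less than 2-fold apart, stood at 25.6 RPKM with EGF, 12.7 with ANG and 25.2 in mock, so that its EGF level was close to mock and its ANG level was the low one. FOSL2 and JUND differed by 0.64 and 0.65 on the log2 scale.

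NR4A1, an orphan nuclear receptor induced by growth factors (hg19 chr12:52445191-52453287, plus strand), stood at 11.3 RPKM with EGF, 0.40 with ANG and 0.74 in mock. CSRNP1, a nuclear protein, stood at 7.87 RPKM with EGF, 1.37 with ANG and 2.18 in mock. BHLHE40, a basic helix-loop-helix repressor that also acts on the circadian clock, stood at 85.4 RPKM with EGF, 21.5 with ANG and 38.4 in mock. NR4A1 and CSRNP1 were low with ANG and in mock, whereas BHLHE40 was lowest with ANG. Of the 27 immediate-early transcription factors listed, 26 met the conditions, NR4A2 being below 1 RPKM, and 16 of the 26 were at least 2-fold higher with EGF, beside 0.43% of all genes compared. Their median difference between the ligands was 1.27, beside 0.03 for all genes compared. The same 26 had a median of 1.55 for EGF minus mock and 0.03 for ANG minus mock. MAFF, KLF10, HES1 and NR4A3, the others of the 16 with SRF, EGR and AP-1 genes above, differed by 1.26 to 1.86. The smallest difference among the 26 was that of ETS2, 0.14, with 75.4 RPKM with EGF, 68.3 with ANG and 62.3 in mock.

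ATF3, a stress-induced factor of the ATF/CREB family, was high with both ligands, at 103.5 RPKM with EGF, 51.4 with ANG and 12.01 in mock. MYC, the growth-promoting factor, stood at 114.1 RPKM with EGF, 78.2 with ANG and 55.2 in mock. ATF3 was the only 1 of the 26 at least 2-fold above mock with ANG.

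**Figure D2:**
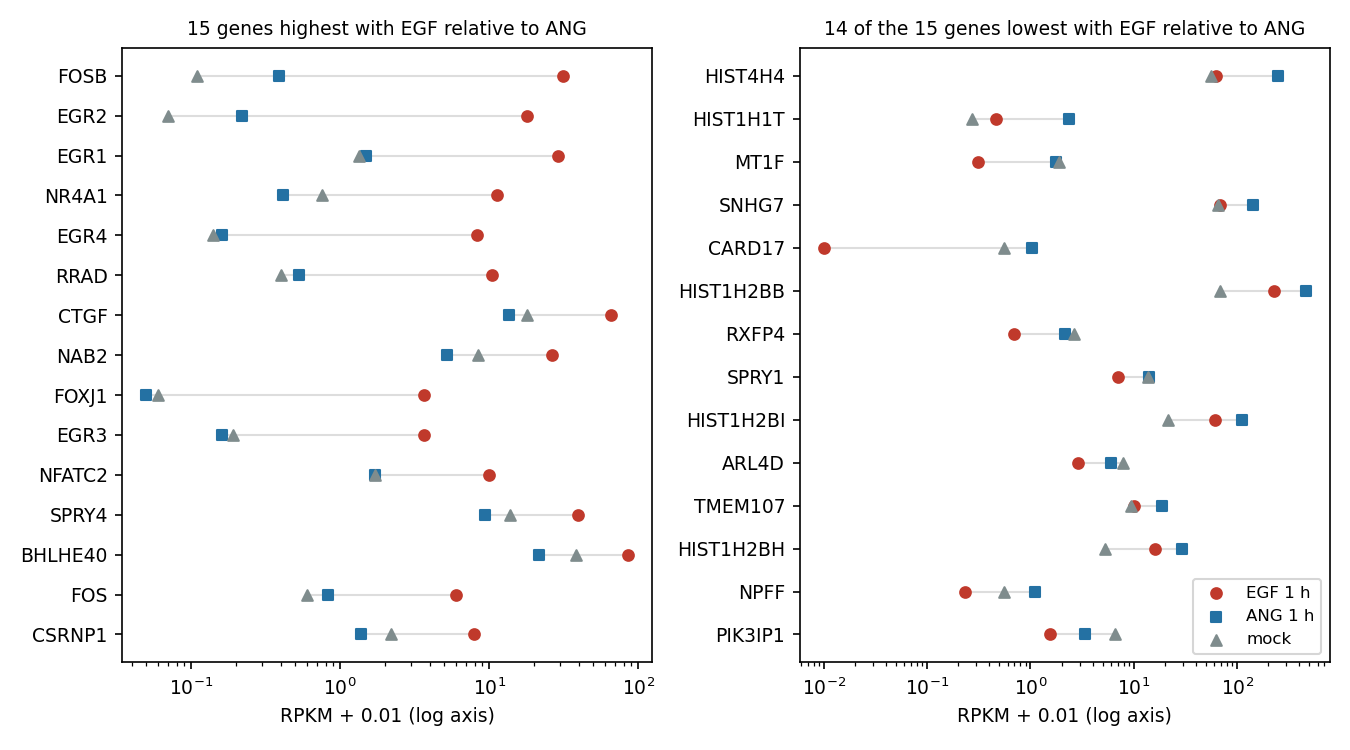
RPKM + 0.01 on a log axis in the EGF 1 h (red circles), ANG 1 h (blue squares) and mock (grey triangles) libraries of Panc-1, for the 15 named genes with the highest difference between EGF and ANG and 14 of the 15 with the lowest. In the left panel the EGF point is the highest of the 3 for each gene, and ANG and mock lie close together for some, as for EGR1 at 29.1, 1.49 and 1.32 RPKM, and further apart for others, as for FOSB and BHLHE40; in the right panel the spacing differs from gene to gene, and HIST4H4 has ANG at 251 RPKM beside 61.9 with EGF and 55.5 in mock.

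Among immediate-early genes that are not transcription factors, 22 of 25 met the conditions, 8 were at least 2-fold higher with EGF (0.43% of all genes compared), and the median difference was 0.57. CTGF, a secreted matricellular protein, had the largest, at 65.3 RPKM with EGF, 13.6 with ANG and 17.8 in mock. PLK3, a stress-responsive kinase, stood at 21.5 RPKM with EGF, 5.55 with ANG and 5.63 in mock. MCL1, which keeps cells from apoptosis, stood at 182 RPKM with EGF, 76.0 with ANG and 73.1 in mock. In PLK3 and MCL1 the ANG and mock levels nearly coincided. IER2, IER3, ZFP36, TRIB1 and SERTAD1 were the others, with differences of 1.08 to 1.30. ZFP36, which speeds the decay of cytokine mRNAs, was one of the most abundant at 418 RPKM with EGF, 190 with ANG and 266 in mock. PLK2, GADD45A and PMAIP1 of the same list differed by 0.06 to 0.17.

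Inhibitors that ERK signalling switches on against itself formed the next group. Of 18 genes that met the conditions, 4 were at least 2-fold higher with EGF (0.43% of all genes compared) and the median difference was 0.50. The phosphatase DUSP6, which removes the activating phosphates of ERK, stood at 46.0 RPKM with EGF, 13.7 with ANG and 7.47 in mock. DUSP5, a nuclear ERK phosphatase, stood at 91.1 RPKM with EGF, 25.8 with ANG and 32.7 in mock, and DUSP2 at 7.20, 2.08 and 4.29 RPKM. DUSP6 was the one of these with a higher level with ANG than in mock. The Sprouty proteins damp receptor tyrosine kinase signals. SPRY4 stood at 39.6 RPKM with EGF, 9.41 with ANG and 13.9 in mock, SPRY2 at 21.2, 11.1 and 9.77 RPKM, and SPRY1 at 7.02, 13.9 and 13.8 RPKM. SPRY1 was thus placed opposite to its relatives, low with EGF and at the mock level with ANG. ERRFI1, which binds and inhibits EGFR, was abundant throughout, at 868 RPKM with EGF, 602 with ANG and 455 in mock.

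Of the 12 EGFR family receptors and ligands listed, 6 met the conditions and none of these reached 2-fold. ERBB3, ERBB4, EGF, BTC and EPGN did not meet them, and AREG has no entry in the data. EGFR stood at 33.4 RPKM with EGF, 32.4 with ANG and 43.7 in mock, and ERBB2 at 11.6, 11.9 and 20.01 RPKM. HBEGF, an EGFR ligand that is also an immediate-early gene, stood at 9.87 RPKM with EGF, 4.88 with ANG and 4.50 in mock. EREG, another EGFR ligand, was above mock with both, at 12.5 RPKM with EGF, 8.43 with ANG and 2.66 in mock. The ligand gene EGF was listed at 0 with EGF and in mock, and at 0.02 RPKM with ANG. The transcripts of ANG itself, whose span overlaps that of RNASE4, stood at 2.99 RPKM with EGF, 2.64 with ANG and 4.78 in mock. RNH1, the ribonuclease inhibitor that binds ANG, stood at 94.0 RPKM with EGF, 88.9 with ANG and 89.3 in mock, and PLXNB2, reported as an ANG receptor, at 53.1, 55.2 and 66.3 RPKM.

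Several genes outside the early-gene lists were among the widest gaps. RRAD, a small GTPase related to RAS, stood at 10.5 RPKM with EGF, 0.52 with ANG and 0.39 in mock. NFATC2, a calcium-regulated transcription factor, stood at 9.89 RPKM with EGF and at 1.71 both with ANG and in mock. FOXJ1, a regulator of motile cilia, stood at 3.62 RPKM with EGF, 0.04 with ANG and 0.05 in mock. All 3 had an ANG level close to mock. OSR2, a zinc-finger factor of development, stood at 14.8 RPKM with EGF, 3.74 with ANG and 2.60 in mock. RRP12, a ribosome assembly factor, stood at 86.6 RPKM with EGF, 42.0 with ANG and 27.9 in mock.

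The rest of the 50 were named after their values were seen. MAP2K3 and MAP3K14, kinases of the p38 and NF-kB pathways, differed by 1.30 and 1.16 on the log2 scale, BCL10, an NF-kB adaptor, by 1.12, and WEE1, which restrains entry into mitosis, by 1.04. FAM46B, ANKRD57, HBQ1, CCRN4L, ZNF697, ZNF487P and LOC154860 differed by 1.05 to 1.42. RPS28 may share reads with processed copies, and BCYRN1 is listed over a span of 518928 bp though its RNA is short, so their values are uncertain. BCYRN1 stood at 22.2 RPKM with EGF, 6.32 with ANG and 25.6 in mock, and RPS28 at 15.1, 6.41 and 14.3 RPKM. In both, the EGF level was near mock and the ANG level below it. With either ligand at 5 and 24 h in Panc-1 they were also below mock. BCYRN1 stood there at 11.2 to 16.6 RPKM and RPS28 at 6.58 to 10.5.

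The NF-kB subunits, inhibitors and targets included 0 of 15 genes at 2-fold, yet all 15 were above 0, beside 58.9% of all genes compared, with a median of 0.41, and 3 passed 1.5-fold, beside 1.48% of all. NFKBIA, the inhibitor that NF-kB induces, stood at 129 RPKM with EGF, 71.8 with ANG and 127 in mock, and NFKBIE at 19.5, 10.1 and 14.3 RPKM. The EGF level of NFKBIA was close to mock and the ANG level was lower. SRF and YAP cytoskeletal targets also had 0 of 20 at 2-fold and 20 of 20 above 0, with a median of 0.25, and VCL, the adhesion protein vinculin, stood at 290 RPKM with EGF, 183 with ANG and 226 in mock. Of 16 secreted growth factors and cytokines 0 reached 2-fold and 3 reached 1.5-fold. LIF, an interleukin-6 family cytokine, stood at 65.0 RPKM with EGF, 32.0 with ANG and 33.1 in mock.

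**Figure D3:**
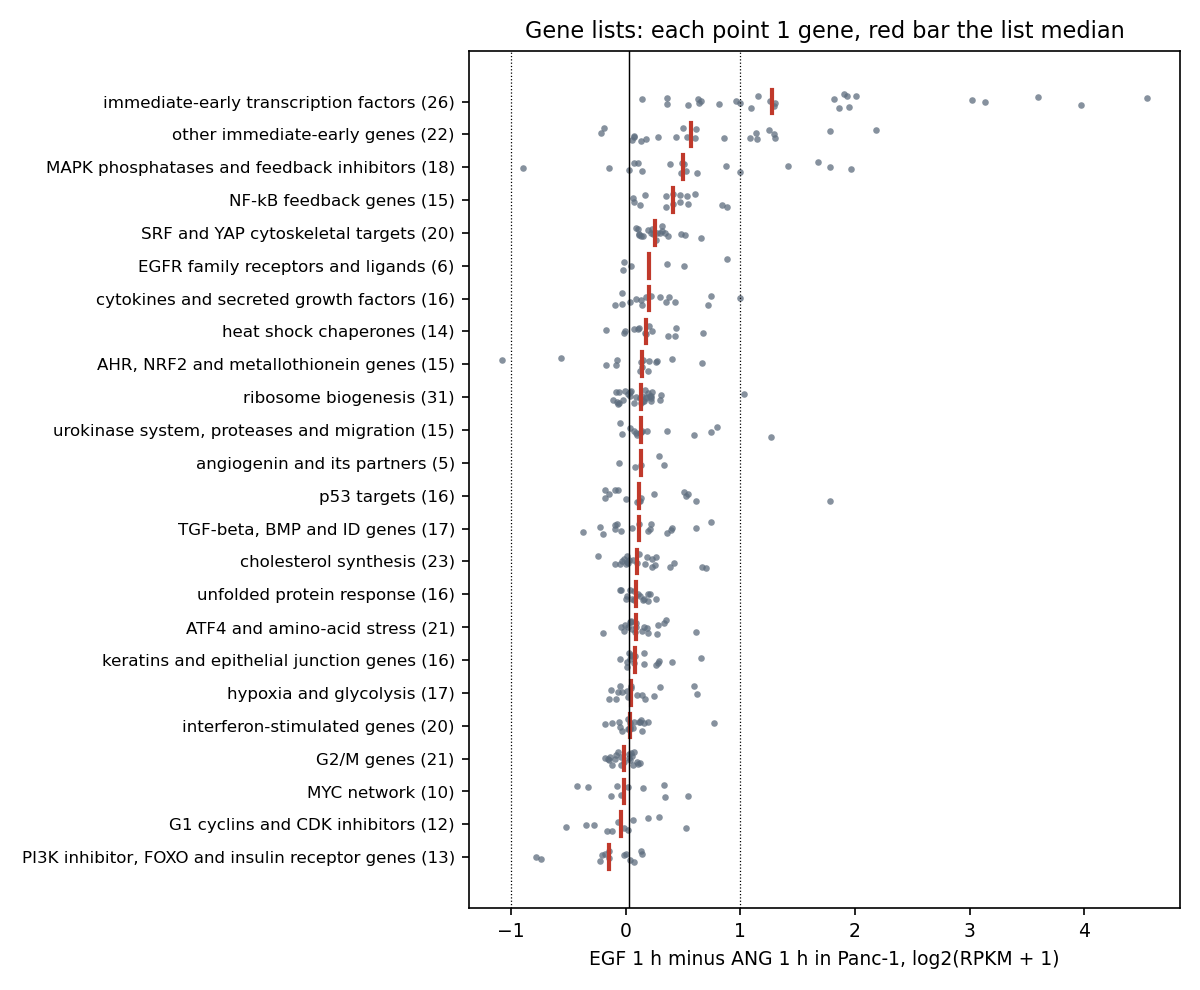
EGF minus ANG on the log2(RPKM + 1) scale at 1 h in Panc-1 for the members of each gene list (each point 1 gene, number of genes in brackets), with the list median as a red bar, the median of all genes compared as a black line at 0.03 and 2-fold as dotted lines. The immediate-early transcription factors stand furthest to the right with a median of 1.27, and most other lists lie around 0.

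For other lists the median between the ligands was close to 0. The 21 G2/M genes had a median of -0.01 between the ligands, with 0 at 2-fold, yet medians of 1.48 for EGF minus mock and 1.55 for ANG minus mock, and 20 of 21 were at least 2-fold above mock with each, beside 3.45% of all genes with EGF and 2.96% with ANG. The 23 cholesterol synthesis genes had medians of 0.10 between the ligands, -0.99 for EGF minus mock and -1.13 for ANG minus mock. HMGCS1, an early enzyme of the pathway, stood at 48.4 RPKM with EGF, 30.1 with ANG and 77.8 in mock. Ribosome biogenesis (31 genes), ATF4 and amino-acid stress (21) and the unfolded protein response (16) had medians of 0.14, 0.09 and 0.09 between the ligands, with 1, 0 and 0 genes at 2-fold. Their medians against mock were 0.29, 0.75 and 0.34 for EGF and 0.16, 0.57 and 0.27 for ANG in the same order. SESN2, a stress-induced inhibitor of mTORC1, stood at 143 RPKM with EGF, 92.9 with ANG and 16.6 in mock.

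Fewer genes were lower with EGF. Among 13 genes for PI3K inhibition, FOXO factors and insulin receptor signalling, of which 5 were above 0, the median was -0.15. PIK3IP1, an inhibitor of PI3-kinase, stood at 1.55 RPKM with EGF, 3.38 with ANG and 6.59 in mock, lower than mock in both. TXNIP, which restrains glucose uptake, stood at 36.8 RPKM with EGF, 62.2 with ANG and 39.6 in mock, and CDKN1B, the cell cycle inhibitor p27, at 20.3, 29.5 and 21.1 RPKM. For TXNIP and CDKN1B the EGF level was near mock and the ANG level above it. MT1F, a metallothionein, stood at 0.30 RPKM with EGF, 1.75 with ANG and 1.89 in mock. CARD17 was listed at 0 with EGF and stood at 1.02 RPKM with ANG and 0.55 in mock.

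The remaining genes higher with ANG were histones and hosts of short RNAs. HIST4H4, a histone H4 gene with a span close to the limit of 400 bp (hg19 chr12:14923654-14924065, minus strand), stood at 61.9 RPKM with EGF, 251 with ANG and 55.5 in mock. HIST1H1T stood at 0.45 RPKM with EGF, 2.37 with ANG and 0.26 in mock. Of the 49 genes with a HIST symbol, 47 were below 0, beside 40.5% of all genes compared, and their median was -0.48. At least 2-fold higher with ANG were 2 of them (0.0689% of all genes) and at least 1.5-fold 15 (0.43% of all genes). Their medians against the shared mock were 1.57 for EGF and 2.10 for ANG, and in the other 5 pairs of ligands the median of the same genes lay between -0.54 and 0.32. SNHG7, whose span holds small nucleolar RNAs, stood at 69.0 RPKM with EGF, 143.9 with ANG and 66.0 in mock. RNU5D and RNU5E, named after their values were seen, are listed over spans of 245256 and 245257 bp that overlap almost wholly and have nearly the same values, 8.49 RPKM with EGF, 22.9 with ANG and 5.14 in mock for RNU5D, so that they are not separate measurements.

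The share of reads in genes with a span under 400 bp also differed between the libraries. It was 5.11% with EGF, 10.0% with ANG and 6.22% in mock, and lay between 10.0 and 16.5% in the 5 Panc-1 libraries other than EGF 1 h and mock. In those 5, SNHG7 stood at 140.8 to 265 RPKM and RNU5D at 17.2 to 27.3 RPKM, all above EGF 1 h and mock. BCYRN1 and RPS28 were lower in those 5 than in EGF 1 h and mock. At 5 h in Panc-1 HIST4H4 stood at 194 RPKM with EGF and 205 with ANG, where the shares were 11.2 and 11.4%. At 24 h it stood at 76.2 RPKM with EGF and 80.9 with ANG, where the shares were 11.6 and 16.5%. In AsPC-1 mock it stood at 285 RPKM, where the share was 6.03%. Among 566 shorter genes outside the comparison with at least 1 RPKM in either library, 26 were at least 2-fold higher with EGF and 226 higher with ANG, with a median of -0.84. The part of this share in the differences of the host genes, HIST4H4, BCYRN1 and RPS28 was not tested.

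The other 5 pairs of EGF and ANG libraries, Panc-1 at 5 and 24 h and AsPC-1 at 1, 5 and 24 h, share no library with the pair described. In AsPC-1 at 1 h, 44 of the 50 genes were higher with EGF, beside 5836 of all 11618 genes compared. The median difference of the 50 was 0.61 and 12 of them reached 2-fold, beside 39 of all genes compared (0.336%). In Panc-1 at 5 h, 46 of the 50 were higher with EGF, beside 4420 of all 11618. The median of the 50 was 0.59 and 8 of them reached 2-fold, beside 23 of all (0.198%). In AsPC-1 at 5 h the median was 0.30 and 3 of the 50 reached 2-fold, beside 0.189% of all. At 24 h the medians were 0.13 in Panc-1, with 2 at 2-fold beside 0.155% of all, and 0.16 in AsPC-1, with 5 beside 0.809%. All genes compared had medians between -0.10 and 0.05 in these 5 pairs. The 8 genes higher with ANG had a median of 0.00 in AsPC-1 at 1 h, where RNU5D and RNU5E were at least 2-fold higher with EGF, and medians of -0.02 in Panc-1 at 5 h and -0.89 in AsPC-1 at 5 h. EGR1 in AsPC-1 at 1 h stood at 42.4 RPKM with EGF, 4.07 with ANG and 5.40 in mock, NR4A1 at 61.0, 5.22 and 2.51 RPKM, and FOSB at 7.76, 1.28 and 0.66 RPKM. These 3 were highest with EGF in both lines. CTGF and DUSP6 were placed otherwise, CTGF at 4.98 RPKM with EGF, 5.07 with ANG and 1.84 in mock, and DUSP6 at 72.9, 91.8 and 215 RPKM.

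At 5 h in Panc-1 EGR1 and FOSB were far below their 1 h level with EGF. EGR1 stood at 3.30 RPKM with EGF and 0.75 with ANG at 5 h, and FOSB at 0.64 and 0.22 RPKM. SPRY4 at 5 h stood at 32.6 RPKM with EGF and 7.10 with ANG, and DUSP6 at 25.2 and 9.09 RPKM. The gap of SPRY4 and DUSP6 at 5 h was thus still more than 2-fold. Against their level with EGF at 1 h, 10 of all genes compared were at least 2-fold higher with EGF at 5 h (0.0861%) and 28 lower (0.241%).

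A test across pairs was possible where they repeat. Over the 5 other pairs, with the pair as a block, limma on 12622 genes called 8 genes higher with EGF (0.0634%) and 0 lower at an adjusted p under 0.05, with 1013 higher and 848 lower at an unadjusted p under 0.05. FOSL1 was higher with EGF than with ANG by 0.84 ± 0.08 (SE, limma adjusted p = 0.0336) on the log2 scale. IER2 was higher by 0.76 ± 0.10 (limma adjusted p = 0.0480), and each was higher in 5 of 5 pairs. Also called were PLAU, which encodes urokinase, the receptor TNFRSF12A, PHLDA2, B3GNT5 and AEN, at 0.63 to 0.93. Of the 50, 45 could be tested, 3 passed, FOSL1 and IER2 among them, 40 had a positive estimate and the median was 0.43, beside -0.02 for all genes tested. Leaving out the Panc-1 5 h, Panc-1 24 h or AsPC-1 5 h pair left 0 calls, and leaving out the AsPC-1 24 h pair gave 15. The fit also gave 0 calls without the pair as a block, and 0 with no filter on level.

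At 1 h over both lines, limma called 9 genes higher with EGF (0.0713%) and 0 lower, with 329 higher and 116 lower at an unadjusted p under 0.05. The fit includes the Panc-1 pair at 1 h, so it does not stand apart from the values above. NR4A1 was higher with EGF than with ANG by 3.22 ± 0.13 (SE, limma adjusted p = 7.8e-05). EGR1 was higher by 3.35 ± 0.25 (limma adjusted p = 0.00398) and EGR3 by 1.91 ± 0.13 (limma adjusted p = 0.00241). The others were CSRNP1 (2.14), FOS (1.97), ANKRD57 (1.39), IER2 (1.25), LIF (1.13) and HES1 (1.12), all higher with EGF in both lines. EGR3 reached 1 RPKM only with EGF at 1 h, at 3.64 RPKM in Panc-1 and 2.86 in AsPC-1. It passed the level filter only through these libraries, where it was high. Elsewhere it was at most 0.49 RPKM, near the floor, so its SE and p are to be read with that limit. Without the AsPC-1 pair, where the lone Panc-1 pair at 1 h is assumed to vary like the later pairs, NR4A1, EGR1 and EGR3 kept a limma adjusted p of 0.00334, 0.0245 and 0.0286, and the other 6 had 0.0834 to 0.243. FOSB, at 3.25 ± 0.48, did not pass (limma adjusted p = 0.0905). EGR2, EGR4, FOXJ1, NR4A3 and LOC154860 reached 1 RPKM in fewer than 2 of the 12 libraries and could not be tested.

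The Panc-1 pair at 1 h was also set against the other 5 pairs. It is a single pair with no repeat, so the p rests on the spread of the 5 others and on the assumption that this pair varies like them. On that basis limma called 2 genes (0.0158%), with 140 genes higher and 52 lower at an unadjusted p under 0.05. RRAD differed by 2.91 between the ligands in this pair and by a mean of 0.19 in the others, a departure of 2.72. RRAD reached 1 RPKM only with EGF at 1 h and 5 h in Panc-1, at 10.5 and 1.39 RPKM. Only these libraries let it pass the level filter. Its other levels were at most 0.52 RPKM, where the pseudocount also shrinks the spread of the other pairs. OSR2 differed by 1.74 in this pair and by -0.52 in the others, where it was lower with EGF in 5 of 5, a departure of 2.26 ± 0.22 (limma adjusted p = 0.0314). Leaving out the Panc-1 24 h or the AsPC-1 5 h pair left 0 such genes, leaving out the Panc-1 5 h pair 1 and the AsPC-1 1 h pair 5. With a pseudocount of 0.1 the fit gave 0 calls, and with no filter on level 35 higher and 18 lower. As fitted it called 0 genes lower, and HIST4H4, with a departure of -1.97 ± 0.26, did not pass (limma adjusted p = 0.143).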

How the data were processed

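The labels gave the line, ligand and time of each of the 14 total RNA libraries, 1 per condition. The deposited values are log2 RPKM per gene, computed by the authors per the file headers, in the build hg19 as listed per the submitters' processing notes. Which aligner, counter and annotation they used, and whether strand was read, is not given in the sources used here. Values were turned back to RPKM, the lowest log2 value (-8.966) being read as 0, and differences were taken as log2(RPKM + 1). Depth was estimated from the smallest steps between values of genes with a span of up to 150 bp, where 100% of values came out as whole reads within 0.1 of a read. Counts per gene were not rebuilt.

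Pairs were tested with limma 3.58.1 (R 4.3.3) with line and time as a block, on genes with 1 RPKM in at least 2 of the libraries of the 6 pairs, with Benjamini-Hochberg adjustment at 0.05. Pairing comes from the labelled line and time, not from a shared replicate. With simulated data, in which 200 of the 12622 genes were given a change, 91% of 2-fold and 98% of 4-fold changes were recovered over the 5 other pairs, 40% and 89% for the departure of the Panc-1 1 h pair, and 71% and 96% at 1 h over both lines. The changed genes were drawn from those with a mean log2(RPKM + 1) above 2. The simulated noise was independent between libraries, with no difference between lines or times. These rates thus do not cover genes below that level, such as RRAD and EGR3. Promoter windows are RefSeq's, matched by symbol in GRCh38.p14, and motifs were searched on both strands.

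The genes compared, the 24 gene lists and 6 marker lists, and the rules were chosen with earlier results of these data known. Named genes were the 15 with the highest and the 15 with the lowest difference (unnamed loci, short RNAs and pseudogenes skipped), up to 4 of each list with the largest difference, and EGFR, ANG, EGF, RNH1, PLXNB2, EGR1, FOS, DUSP6, MYC, CCND1 and CDKN1A. Genes named beyond these, mostly list members and the rest of the 50, were chosen after their values were seen. Some genes that the rules took are not reported here. Symbols are those of the files, some of them older ones. The lists whose median is not given above had medians between -0.04 and 0.20 between the ligands.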

Additional observations from a re-analysis of the deposited data

Results flagged for a closer look

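RRAD and OSR2 were noted because their difference between EGF and ANG in Panc-1 at 1 h departed from that of the other 5 pairs by limma. The pair is 1 EGF and 1 ANG library, so the p rests on the spread of the other pairs, and both genes are among the 15 with the highest difference in this same pair. The departure was 2.72 for RRAD and 2.26 for OSR2 on the log2(RPKM + 1) scale. RRAD passed the level filter only through the libraries with EGF at 1 h and 5 h in Panc-1, where it was high. Its other levels were at most 0.52 RPKM, where the pseudocount also shrinks the spread of the other pairs. RRAD stood at 1.39 RPKM with EGF and 0.47 with ANG in Panc-1 at 5 h, and at 0.19 and 0.29 RPKM in AsPC-1 at 1 h. OSR2 stood at 2.15 RPKM with EGF and 3.76 with ANG in Panc-1 at 5 h, and at 1.09 and 1.70 RPKM in AsPC-1 at 1 h. Over the alternatives tried, the departure lay between 2.64 and 3.61 for RRAD and between 2.19 and 2.71 for OSR2. It was positive under all 8 alternatives for each gene, but neither gene passed under all 8.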

How the results depend on the processing

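The count of 58 genes at least 2-fold apart between EGF and ANG became 112 (86 higher with EGF, 26 higher with ANG) with a pseudocount of 0.1, 132 (97 and 35) with none, 222 at 1.5-fold and 310 (76 and 234) with no filter on span, which lets in the short genes. It stayed within 1.5 times when each library was centred, and with other level filters. Against mock, a pseudocount of 0.1 gave 970 genes for EGF and 905 for ANG, in place of 613 and 554. Centring moved the share of higher genes for ANG against mock to 72.4%, against 62.1% as deposited. In the limma fit over the 5 other pairs the 8 calls became 0 with no filter on level and 0 without the pair as a block, and 0 to 15 when a pair was left out. The departure of the Panc-1 1 h pair, 2 calls, became 0 with a pseudocount of 0.1, 53 with no filter on level, and 0 to 5 when a pair was left out. At 1 h over both lines the 9 calls became 16 with a pseudocount of 0.1, 2 with no filter on level, and were 9 (8 higher, 1 lower) without the AsPC-1 1 h pair. The cause was not tested. Of the list medians, named genes and counts computed, 1 changed sign, the median of the interferon-stimulated genes, 0.04 as deposited and -0.003 when each library was centred. With 1 library per condition, library preparation and ligand cannot be told apart in the pair at 1 h, and genes near 1 RPKM rest on few reads.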

Other observations

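CYP1A1, a target of the aryl hydrocarbon receptor, stood at 1.64 RPKM with EGF, 2.91 with ANG and 0.22 in mock in Panc-1 at 1 h, so that both ligands' libraries were above mock. CDKN1A, the cell cycle inhibitor p21, stood at 70.2 RPKM with EGF, 48.5 with ANG and 44.3 in mock, a difference of 0.53 between the ligands on the log2 scale, and at 90.1 RPKM with EGF and 44.2 with ANG at 5 h. It was higher with EGF in 5 of the 5 other pairs, with a mean of 1.29 ± 0.18 (SE, limma adjusted p = 0.0601), which did not pass. CCND1, the G1 cyclin, stood at 41.9 RPKM with EGF, 34.2 with ANG and 64.1 in mock at 1 h.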
